A study of Homo sapiens with 91 samples.

Results

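MOLT4 is a human acute lymphoblastic leukemia line of the T lineage, and the measurements described here concern how its response to the CDK9 degrader KI-CDK9d-32 changed between 4 h and 8 h of treatment. The effect at one time is the log2 fold change of the degrader over DMSO vehicle, and the change of effect is the 8 h effect minus the 4 h effect. The members are the 15 MOLT4 libraries that enter this difference, of 91 libraries in all, chosen by line, compound and time. They are 4 libraries of cells given KI-CDK9d-32 for 8 h, 4 of DMSO vehicle for 8 h, 4 of KI-CDK9d-32 for 4 h, and 3 of vehicle for 4 h (replicates 1, 3 and 4). The whole study also covers KB-0742, a CDK9 inhibitor, the pancreatic adenocarcinoma line PSN1 and the rhabdomyosarcoma line RH4 (the design text writes RH1). All cells grew in RPMI medium with serum, carried no engineered change named in the labels, and were seeded at 1000 cells before treatment; doses are not given in the sources used here. Replicates are called biological in the labels, but nothing there says that they were separate cultures, and the spread that p-values rest on may be technical.

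CDK9 is the kinase subunit of P-TEFb, which it forms with a cyclin T. P-TEFb phosphorylates the carboxy-terminal domain of RNA polymerase II and the factors that hold it paused near the start site, and so releases it into the gene body. The 7SK RNA and HEXIM proteins keep a pool of P-TEFb inactive. When transcription is slowed, mRNAs with short half-lives are lost first, while ribosomal protein mRNAs and mitochondrially encoded RNAs, the last made by a separate polymerase, are long-lived or made apart from CDK9. MOLT4 cells, like other T-lineage leukemias, are known for high MYC.

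The promoters of 4 genes whose effect changed are shown because they stand for different courses over time. Relative to the typical gene, ZFP36 was below vehicle at 4 h and above it at 8 h. On the same scale IRF1 was below vehicle at 4 h and not called at 8 h, and H2AC6 was called above it at 8 h alone. SRSF3 was below vehicle at both times and lower still at 8 h. Each sequence is the 250 bases before the start site from RefSeq (GRCh38.p14), written 5′ to 3′ on the gene's strand, with matches on either strand in capitals. The motifs searched were the TATA box (TATAAA), the CCAAT box (spelled as its name), the GC box (GGGCGG), the octamer (ATGCAAAT), the cyclic AMP response element (TGACGTCA) and the E box (CACGTG).
ZFP36 (chr19:39406597-39406846, plus strand): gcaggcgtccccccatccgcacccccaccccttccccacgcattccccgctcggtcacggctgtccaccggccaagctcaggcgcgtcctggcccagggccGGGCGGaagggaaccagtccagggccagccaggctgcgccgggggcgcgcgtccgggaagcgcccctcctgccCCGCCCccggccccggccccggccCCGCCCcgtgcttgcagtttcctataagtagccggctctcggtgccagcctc
IRF1 (chr5:132490774-132491023, minus strand): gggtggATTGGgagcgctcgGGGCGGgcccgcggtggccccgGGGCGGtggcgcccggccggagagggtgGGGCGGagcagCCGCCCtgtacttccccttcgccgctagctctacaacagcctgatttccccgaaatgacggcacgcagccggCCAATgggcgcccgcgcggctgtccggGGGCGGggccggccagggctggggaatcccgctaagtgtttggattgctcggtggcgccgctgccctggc
H2AC6 (chr6:26123922-26124171, plus strand): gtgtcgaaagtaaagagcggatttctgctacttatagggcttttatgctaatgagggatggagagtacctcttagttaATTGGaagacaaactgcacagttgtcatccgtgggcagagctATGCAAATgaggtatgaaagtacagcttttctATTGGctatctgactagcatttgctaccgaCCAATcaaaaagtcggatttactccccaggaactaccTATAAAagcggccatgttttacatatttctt
SRSF3 (chr6:36594112-36594361, plus strand): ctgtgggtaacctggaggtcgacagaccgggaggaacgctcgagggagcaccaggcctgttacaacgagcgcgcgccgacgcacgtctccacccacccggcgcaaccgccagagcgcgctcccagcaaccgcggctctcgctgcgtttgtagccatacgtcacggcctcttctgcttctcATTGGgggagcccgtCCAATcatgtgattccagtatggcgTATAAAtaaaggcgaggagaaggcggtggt
The H2AC6 window held a TATA box 31 bases before the start, an octamer at 130 bases and 3 CCAAT boxes. SRSF3 held a TATA box at 30 bases with CCAAT boxes at 70 and 55 bases, while IRF1 held 5 GC boxes and 2 CCAAT boxes, and ZFP36 held 3 GC boxes. Matches between different motifs did not overlap in these 4 windows. Among all 35116 promoters in the table, 10.7% held the TATA box, 32% the CCAAT box, 42.6% the GC box, 1.63% the octamer, 1.65% the cyclic AMP response element and 6.34% the E box. A match describes these letters and is not a binding site.

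The libraries differed in depth and in spike-in content before any gene was compared. The 15 libraries held 1598283 to 2906667 gene counts each. The equal amount of spike-in RNA added to each lysate took 37.1%, 33.1%, 61.5% and 28.2% of all counts with the degrader at 8 h (39.9 ± 14.8%, SD, n = 4), against 14.5 ± 1.91% with vehicle at 8 h (n = 4), and 23.96%, 16.0%, 39.5% and 14.1% with the degrader at 4 h (23.4 ± 11.6%, n = 4), against 13.98%, 21.2% and 12.1% with vehicle at 4 h (15.8 ± 4.79%, n = 3). Every degrader library at 8 h lay above every vehicle library, while the 2 groups at 4 h overlapped. Replicate 3 had the highest share with the degrader at both times, and the KB-0742 library of the same number and 4 h also reached 49.4%. On the log2 scale the ratio of spike-in to gene counts was 1.21 higher at 8 h than at 4 h with the degrader, a difference not called by a two-sided exact permutation test (p = 0.143, adjusted p = 0.286, where 70 arrangements allow no p below 0.0286). It was 0.776 without replicate 3 of the degrader at 8 h, 1.61 without replicate 3 of the degrader at 4 h and 1.18 without replicate 3 in every group. With vehicle this difference was -0.107 (exact permutation p = 0.8286). Fewer cells and less RNA per cell cannot be told apart in bulk lysates. The summed TMM-scaled CPM of 19 T-lineage markers ranged over 4232 to 4818 with the degrader at 8 h and 3557 to 3627 with vehicle. At 4 h it ranged over 4431 to 4880 with the degrader and 3420 to 3513 with vehicle. The TMM factors were 0.632 to 0.682 with the degrader at 8 h and 1.28 to 1.36 with vehicle. Before that scaling, the 8 h sums lay lower with the degrader than with vehicle. The 10 B-cell and myeloid markers together, in CPM before TMM scaling, ranged over 11.4 to 21.7 with the degrader at 8 h and 2.06 to 5.17 with vehicle, and over 2.93 to 6.19 with the degrader at 4 h and 2.17 to 4.61 with vehicle. MS4A1 and PAX5 were at 0 in all 15 libraries. MPO had 102 counts with the degrader and 0 with vehicle at 8 h, and 21 with the degrader and 0 with vehicle at 4 h, LYZ had 19 and 0 at 8 h and 16 and 0 at 4 h in the same order, and CD79A had 22 and 9 at 8 h and 9 and 5 at 4 h. CD79B went the other way, with 0 and 15 counts at 8 h and 0 and 13 at 4 h. Another 10 epithelial and muscle markers ranged over 1.25 to 6.25 CPM with the degrader at 8 h and 0 to 15.9 with vehicle, and over 2.41 to 5.28 with the degrader at 4 h and 0 to 4.61 with vehicle. CDH1, MYOD1, MYOG, DES and MYF5 were at 0 throughout, while KRT8 had 14 counts with the degrader and 38 with vehicle at 8 h, and FGFR4 had 19 with the degrader and 2 with vehicle. The part of these markers in the results below was not tested.

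**Figure D1:**
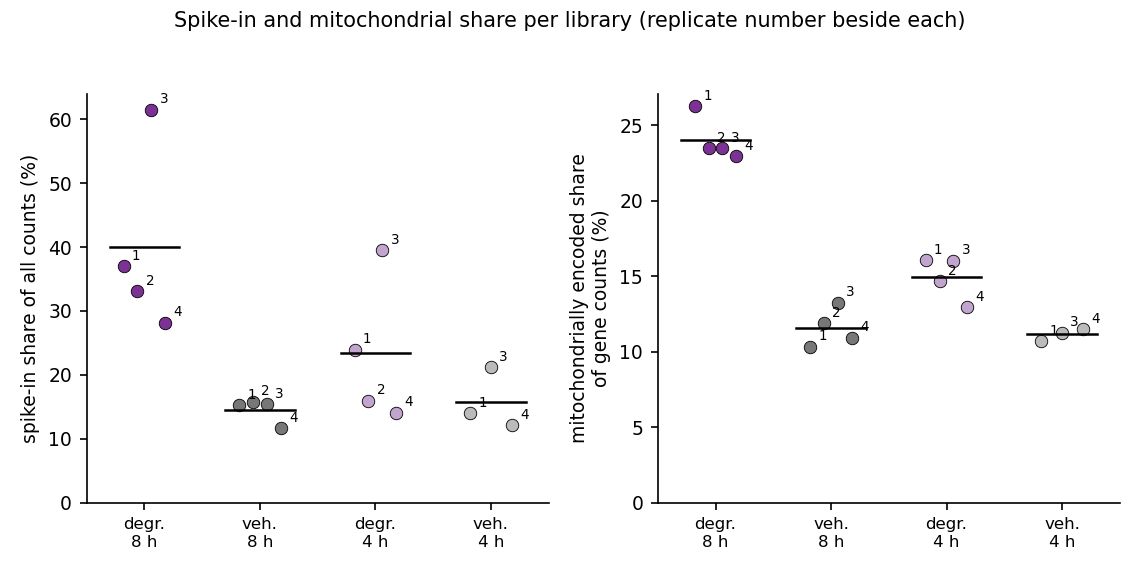
Share of spike-in RNA in all counts (left, percent) and of mitochondrially encoded RNA in gene counts (right, percent) in each of the 15 libraries, with the replicate number beside each point and the group mean as a line (degr. = KI-CDK9d-32, veh. = vehicle). The degrader libraries at 8 h lie above all vehicle libraries in both panels, and replicate 3 has the highest spike-in share with the degrader at both times (61.5% and 39.5%).

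Of 11664 genes tested, the effect of the degrader changed between 4 h and 8 h for 1459 (12.5%), higher at 8 h for 601 (5.15%) and lower for 858 (7.36%). Values are log2 changes ± SE on a scale set by TMM, which makes the typical gene the zero point. The test is the quasi-likelihood F test of edgeR, and a gene was called below a Benjamini-Hochberg adjusted p of 0.05. Falls were more often large: 590 of the 858 lower genes and 228 of the 601 higher genes changed by more than 2-fold, with medians of -1.3 and 0.82. DESeq2, which scales differently, called 908 higher and 853 lower, so the share of higher genes among those called was 51.6% there and 41.2% in edgeR. With the spike-ins as the scale the median gene moved by -1.79 and the calls became 8 higher (0.0686%) and 5294 lower (45.4%, or 45.5% in both directions), so "higher" below means higher than the typical gene and not more RNA per lysate. Of the genes named below as having a higher effect at 8 h, CDKN1A was the only one still called higher with spike-in scaling (3.41, adjusted p = 0.0270). With limma on TPM values CDKN1A, H2AC6, ZFP36, IRF1, CCNE1, BTG2, FBXO5 and 7SK kept their call. The effect itself was called for 1164 genes at 2 h (9.98%), 3797 at 4 h (32.6%, with 13.6% of genes above vehicle and 18.9% below) and 5781 at 8 h (49.6%, with 20.8% above and 28.7% below). With spike-in scaling the effect was called for 37.6% of genes at 4 h and 91.8% at 8 h. Leaving out replicate 3 of all 4 groups left 424 higher and 662 lower genes, and 943 genes kept their call without any one of the 15 libraries. The 12 highest and 12 lowest genes named had to show no overlap of degrader and vehicle libraries at 8 h. This holds for 7SK, ZFP36, H2AC6, MRPS9, MRPL35 and EIF2B4, so their separation then is not a further result.

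**Figure D2:**
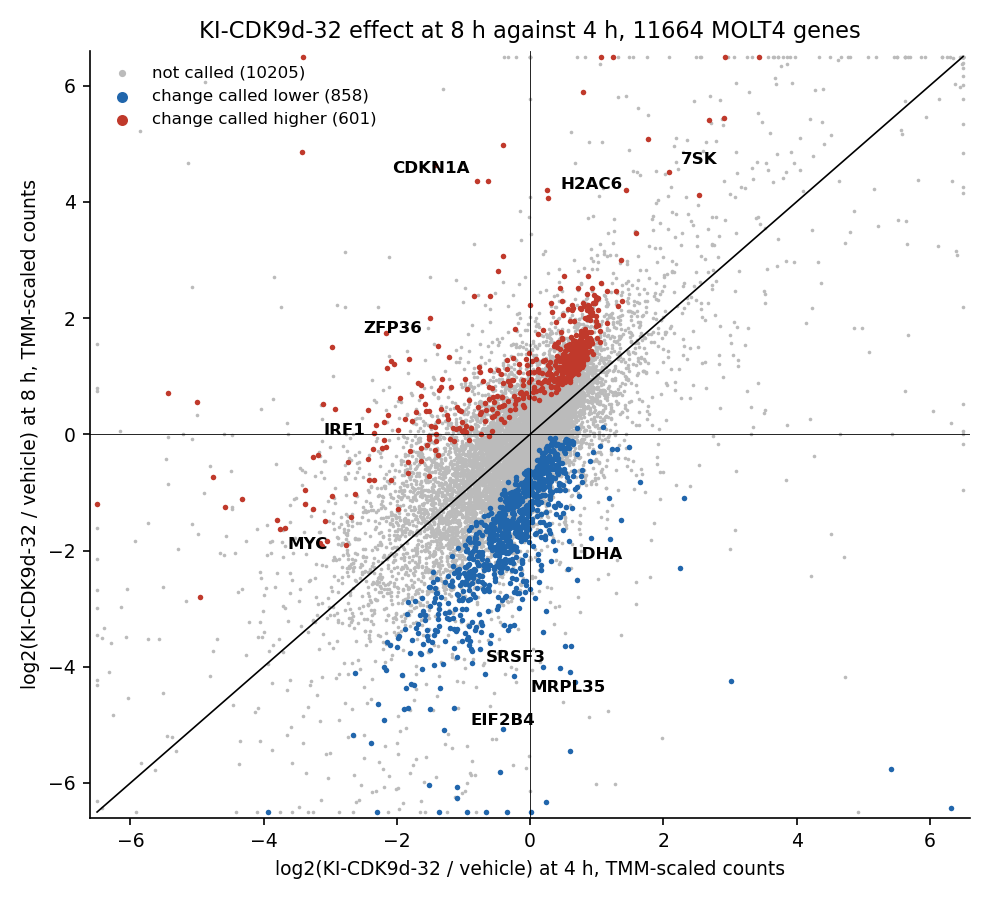
Log2 effect of KI-CDK9d-32 over vehicle at 4 h (horizontal axis) and at 8 h (vertical axis) for each of 11664 genes with TMM scaling; values beyond 6.5 in size are drawn at the edge. The 601 genes with a higher effect at 8 h (red) lie above the line of equal effects and the 858 with a lower effect (blue) below it, and with spike-in scaling these calls become 8 and 5294.

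The called genes followed several courses, which sort the same effects and are not a further test. The most frequent was a fall seen at 8 h alone, with 508 genes that were called lower at 8 h (median effect -1.32) and not called at 4 h (-0.08). Another 274 genes were lower at 4 h (median -0.91) and lower still at 8 h (-2.41). Among genes with a higher effect, 353 were above vehicle at 4 h (median 0.70) and further above it at 8 h (1.38), and 127 were above it at 8 h alone. With TMM scaling a return toward vehicle was less frequent. Here 81 genes were called lower at 4 h (median -1.51) and not at 8 h (0.16). Another 22 were lower at both times but less so at 8 h, and 14 were lower at 4 h and higher at 8 h. In the other direction, 30 genes were above vehicle at 4 h and below it at 8 h, and 37 were above it at 4 h and less so or not called at 8 h. With spike-in scaling the 353 genes that were higher at both times had a median change of -1.16. The 81, 22 and 14 genes of the return then had median changes of -0.26, -0.36 and -0.34. All genes tested had -1.79 on that scale.

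The 2 directions differed in the genes' structure. By GENCODE release 29 the median gene spanned 13519 bases among 593 annotated genes with a higher effect and 18376 bases among 852 with a lower effect, against 28259.5 bases over 11316 annotated genes tested. Single-exon genes made up 9.27% of the higher and 0.352% of the lower genes, against 6.67% of all. The most exons in one transcript had a median of 6 in higher genes and 9 in lower genes, against 9 overall. Protein-coding genes were 89.4% of the higher, 98.9% of the lower and 87.5% of all genes. Called genes were also more abundant than all genes tested (median log2 CPM of 6.85 in higher, 5.39 in lower and 3.55 in all), and these shares were not adjusted for abundance.

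The degrader removes CDK9 protein, so its mRNA is no check of the treatment. CDK9 mRNA had 4.59, 6.71, 13.8 and 12.9 CPM with the degrader at 8 h against 8.99, 9.66, 5.99 and 10.4 CPM with vehicle at 8 h, and 8.15, 4.95, 8.50 and 7.92 CPM with the degrader at 4 h against 10.6, 9.21 and 10.1 CPM with vehicle at 4 h. The groups overlapped at 8 h, every degrader library was below every vehicle library at 4 h, and 1 of the degrader libraries at 4 h stood apart from the other 3. The effect at 4 h was not called (-0.44 ± 0.34, adjusted p = 0.337). The change of effect of 0.53 ± 0.47 was not called (adjusted p = 0.554; -1.26 with spike-in scaling). CCNT1, the cyclin T1 partner, was above vehicle at 8 h (0.85 ± 0.26) and not called at 4 h (-0.101 ± 0.28), but the change of 0.95 ± 0.38 was not called (adjusted p = 0.0960); it was called without replicate 4 of the degrader at 8 h (1.12, adjusted p = 0.0357). HEXIM1, an inhibitor of P-TEFb, had a change of 0.71 ± 0.49 (adjusted p = 0.403) and was not called, with 1 vehicle library at 8 h apart from the others. Of 34 P-TEFb, 7SK and pause-release genes tested, 1 had a higher and 4 a lower effect at 8 h than at 4 h, so 14.7% were called, near the 12.5% of all genes. The list median was 0.11 beside -0.01 over all genes, and ranged from -0.03 to 0.14 without 1 library.

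The entry for 7SK RNA overlaps RN7SK at chr6:52995620-52995950, plus strand, and had 1034, 562, 452 and 546 CPM with the degrader at 8 h against 29.4, 26.5, 28.2 and 29.8 CPM with vehicle at 8 h, and 88.9, 66.6, 62.0 and 76.1 CPM with the degrader at 4 h against 18.2, 13.7 and 20.1 CPM with vehicle at 4 h. Degrader libraries were above all vehicle libraries at both times and highest at 8 h. The effect was 2.08 ± 0.29 at 4 h and 4.51 ± 0.25 at 8 h, and the change was 2.43 ± 0.37 (adjusted p = 2.05e-05), with 0.65 under spike-in scaling. 7SK has many near-identical copies in the genome and no poly(A) tail, so its counts in a library primed on poly(A) are uncertain. PAF1, a subunit of the PAF elongation complex, had 11.1, 12.2, 11.1 and 11.1 CPM with the degrader at 8 h against 85.8, 63.6, 62.4 and 64.1 CPM with vehicle at 8 h, and 25.2, 38.5, 31.5 and 39.0 CPM with the degrader at 4 h against 77.9, 74.0 and 78.3 CPM with vehicle at 4 h. Its mRNA fell below vehicle at 4 h and further at 8 h, with 1 library apart from the other 3 in each 8 h group, and its change was -1.39 ± 0.25 (adjusted p = 3.83e-05). SRSF2, a splicing factor that also acts in pause release, changed by -1.25 ± 0.20 (adjusted p = 7.76e-06). JMJD6, a Jumonji-domain oxygenase that also acts in pause release, went the other way, with 16.4 ± 3.30 CPM with the degrader at 8 h against 43.7 ± 5.81 with vehicle, and 6.08 ± 1.62 CPM with the degrader at 4 h against 39.0 ± 3.78 with vehicle (SD, n = 4, 4, 4 and 3). Its change of 1.26 ± 0.30 (adjusted p = 0.00240) was -0.66 with spike-in scaling and -0.50 with limma on TPM values, and was not called without replicate 3 (adjusted p = 0.062).

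POLR2A, the largest subunit of RNA polymerase II, changed by 0.38 ± 0.22 (adjusted p = 0.290) and was not called. Of 12 polymerase II subunits, 1 was higher and 2 lower (25%): POLR2H changed by -0.78 ± 0.20 (adjusted p = 0.00388), and POLR2I was above vehicle at 4 h (0.40 ± 0.12) and below it at 8 h (-0.34 ± 0.11). Of 15 other transcription-linked CDKs and cyclins, 4 were higher and 1 lower (33.3%, beside 12.5% of all genes). CCNH, the cyclin of the CDK7 kinase in TFIIH, had 3.07 ± 2.28 CPM with the degrader at 8 h against 24.2 ± 6.23 with vehicle, and 17.4 ± 5.45 CPM with the degrader at 4 h against 23.5 ± 4.10 with vehicle (SD). It was called below vehicle at 8 h alone, with a change of -2.43 ± 0.43 (adjusted p = 3.56e-05). MED13, which links the CDK8 module to Mediator, was below vehicle at 4 h and above it at 8 h with TMM scaling, and its change of 1.62 ± 0.32 (adjusted p = 2.02e-04) was -0.14 with spike-in scaling.

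The study's title concerns the MYC network. MYC mRNA stayed below vehicle at both times, and less far below at 8 h. It had 50.5, 59.8, 38.7 and 30.4 CPM with the degrader at 8 h against 179, 157, 165 and 176 CPM with vehicle at 8 h, and 20.7, 32.7, 21.5 and 14.01 CPM with the degrader at 4 h against 183, 128 and 156 CPM with vehicle at 4 h. Neither degrader group overlapped its vehicle group, and the 2 degrader groups overlapped each other. The effect was -2.77 ± 0.17 at 4 h and -1.91 ± 0.16 at 8 h, and the change of 0.86 ± 0.24 (adjusted p = 0.0116) became -0.89 with spike-in scaling. This call was lost without replicate 2 of the degrader at 8 h (0.67, adjusted p = 0.0612) and without replicate 1 of vehicle at 4 h (0.72, adjusted p = 0.0539). MAX, the obligate dimer partner of MYC, moved the other way with TMM scaling. It had 44.7 ± 12.2 CPM with the degrader at 8 h against 117 ± 8.29 with vehicle, and 75.8 ± 13.3 CPM with the degrader at 4 h against 118 ± 1.02 with vehicle (SD). Its change was -0.75 ± 0.19 (adjusted p = 0.00457). With spike-in scaling both changes were negative, at -2.66 for MAX and -0.89 for MYC. Of 10 MYC-MAX network genes, MYC was the 1 called higher and MAX the 1 called lower (20% called, beside 12.5% of all genes).

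The nucleolar ribosome-assembly and MYC-target list had 18 of 58 tested genes with a lower effect at 8 h and 1 with a higher one. Called genes were 32.8% of this list, beside 12.5% of all genes. The list median was -0.42 beside -0.01 for all genes (-2.33 and -1.79 with spike-in scaling). The most changed gene of this list was LDHA, which encodes lactate dehydrogenase A (chr11:18394388-18408425, plus strand). It had 149, 237, 204 and 249 CPM with the degrader at 8 h against 792, 928, 863 and 774 CPM with vehicle at 8 h, and 1101, 1326, 1113 and 1142 CPM with the degrader at 4 h against 906, 949 and 866 CPM with vehicle at 4 h. At 4 h every degrader library lay above every vehicle library, and at 8 h every one lay far below. LDHA thus was above vehicle at 4 h (0.37 ± 0.11) and below it at 8 h (-1.996 ± 0.11), a change of -2.36 ± 0.15 (adjusted p = 5.03e-17). RRP9, a protein of the U3 snoRNP, and NOC4L, a nucleolar protein of small-subunit assembly, were called below vehicle at 8 h alone, with changes of -2.16 ± 0.37 (adjusted p = 8.75e-05) and -1.97 ± 0.28 (adjusted p = 8.54e-07).

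Immediate-early genes have short-lived mRNAs that are quickly induced. Of 27 tested (of 53 in the list), 9 had a higher effect at 8 h and none a lower one (33.3% called, beside 12.5% of all genes). The list median was 1.59 beside -0.01 for all genes, and -0.05 beside -1.79 with spike-in scaling. At 4 h, 15 of the 27 were called below vehicle and 1 above, beside 18.9% and 13.6% of all genes. At 8 h, 5 were below and 8 above, beside 28.7% and 20.8% of all genes. DUSP1, a MAP kinase phosphatase, had 18 summed counts with the degrader and 66 with vehicle at 8 h, and 2 with the degrader and 79 with vehicle at 4 h. Its change was called higher but not without replicate 3 (adjusted p = 0.0838), and its fitted fold is not given, since the 2 counts at 4 h came from 1 library. BTG2, an antiproliferative gene that p53 also induces, had 9.61 ± 6.13 CPM with the degrader at 8 h against 4.14 ± 2.95 with vehicle, and 1.39 ± 1.52 CPM with the degrader at 4 h against 5.98 ± 0.764 with vehicle (SD) and a change of 3.25 ± 0.85 (adjusted p = 0.00559).

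ZFP36 and IRF1, whose promoters are printed above, show the return in genes with more counts. ZFP36 (chr19:39406813-39409412, plus strand) encodes tristetraprolin, which binds AU-rich elements and speeds mRNA decay, and had 41.9, 37.8, 13.8 and 24.6 CPM with the degrader at 8 h against 8.72, 11.5, 11.3 and 10.0 CPM with vehicle at 8 h, and 6.30, 4.57, 4.00 and 2.44 CPM with the degrader at 4 h against 13.2, 13.1 and 8.70 CPM with vehicle at 4 h. With TMM scaling all degrader libraries lay below vehicle at 4 h and above vehicle at 8 h. The ZFP36 effect was then -1.38 ± 0.42 at 4 h and 1.52 ± 0.36 at 8 h, a change of 2.90 ± 0.55 (adjusted p = 1.16e-04). With spike-in scaling ZFP36 was below vehicle at both times (-2.48 at 4 h and -1.20 at 8 h). The change of 1.28 was not called on that scale (adjusted p = 0.168, edgeR). IRF1 (chr5:132481609-132490798, minus strand), an interferon-induced transcription factor, had 48.5, 58.0, 53.5 and 35.7 CPM with the degrader at 8 h against 61.0, 55.8, 68.4 and 43.4 CPM with vehicle at 8 h, and 15.9, 16.0, 11.5 and 15.2 CPM with the degrader at 4 h against 71.8, 79.6 and 56.6 CPM with vehicle at 4 h. All degrader libraries were below vehicle at 4 h, replicate 3 being apart from the other 3. At 8 h the groups overlapped, and the change was 1.998 ± 0.27 (adjusted p = 2.58e-07) (0.1 with spike-in scaling). Of 34 interferon-stimulated genes, 3 were higher and 3 lower (17.6% called, beside 12.5% of all genes). The lower ones included USP18 (-1.87 ± 0.37, with 1 degrader library at 8 h apart from the others) and PSMB9 (-1.15 ± 0.23).

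Other genes below vehicle at 4 h also had large changes. FBXO5, an inhibitor of the anaphase-promoting complex, had 61.7 ± 14.8 CPM with the degrader at 8 h against 31.8 ± 5.21 with vehicle, and 19.6 ± 5.75 CPM with the degrader at 4 h against 38.9 ± 3.79 with vehicle (SD). With spike-in scaling FBXO5 was below vehicle at both times (-2.05 at 4 h and -1.90 at 8 h). CLP1, an RNA kinase of 3′ end processing, had 12.8 ± 5.30 CPM with the degrader at 8 h against 27.2 ± 4.02 with vehicle, and 3.48 ± 0.663 CPM with the degrader at 4 h against 27.4 ± 2.83 with vehicle (SD). MAD2L1BP, a regulator of the spindle checkpoint protein MAD2, had 14.4 ± 4.88 CPM with the degrader at 8 h against 35.2 ± 4.21 with vehicle, and 4.27 ± 1.83 CPM with the degrader at 4 h against 41.0 ± 11.1 with vehicle (SD), with 1 degrader library at 8 h apart from the other 3. Their changes were 1.94 ± 0.33 (adjusted p = 1.83e-05), 1.90 ± 0.46 (adjusted p = 0.00291) and 1.98 ± 0.38 (adjusted p = 1.16e-04). The antisense transcript ADPGK-AS1 changed by 2.12 ± 0.58, but reads of it and its partner gene cannot be told apart without strand. SERTAD1, a CDK4-binding protein, and SLC25A25, a mitochondrial carrier, were below vehicle at 4 h and above it at 8 h with TMM scaling. Their changes were 2.28 ± 0.55 (adjusted p = 0.00270) and 2.15 ± 0.48 (adjusted p = 0.00112).

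Of 22 p53 targets tested, 5 had a higher effect and none a lower one (22.7% called, beside 12.5% of all genes). Their median was 0.81 with TMM scaling (-0.96 with spike-in scaling and -0.11 with limma on TPM values). CDKN1A, which encodes the p21 inhibitor of cyclin-dependent kinases (chr6:36676460-36687339, plus strand), had 11.8, 21.4, 15.7 and 24.6 CPM with the degrader at 8 h against 1.36, 0.312, 1.06 and 0.647 CPM with vehicle at 8 h, and 1.11, 1.52, 2.50 and 1.22 CPM with the degrader at 4 h against 1.06, 3.91 and 2.45 CPM with vehicle at 4 h. All 4 degrader libraries at 8 h were above all other libraries. The 4 h groups overlapped, and the change was 4.99 ± 1.09 (adjusted p = 8.31e-04), or 3.41 with spike-in scaling. With vehicle at 8 h CDKN1A lay at 0.312 to 1.36 CPM, which is few counts per library, so the size of its fold is uncertain. E2F7, a repressor of E2F target genes, was called above vehicle at 8 h alone, with 61.1 ± 8.66 CPM with the degrader at 8 h against 14.1 ± 0.596 with vehicle, and 19.4 ± 1.84 CPM with the degrader at 4 h against 15.4 ± 7.06 with vehicle (SD) and a change of 1.77 ± 0.33 (adjusted p = 8.07e-05) (-0.11 with spike-in scaling). Cell-cycle lists as wholes were balanced. Of 52 replication and E2F targets 5 were higher and 4 lower (17.3% called, beside 12.5% of all genes). Of 42 G2/M genes 4 were higher and 3 lower (16.7%). CCNE1, the G1/S cyclin E1, had 10.8 ± 3.42 CPM with the degrader at 8 h against 3.19 ± 1.16 with vehicle, and 1.03 ± 0.640 CPM with the degrader at 4 h against 5.03 ± 2.77 with vehicle (SD) and a change of 3.90 ± 0.74 (adjusted p = 1.01e-04). MCM3, a helicase subunit, changed by -0.96 ± 0.15 (adjusted p = 6.03e-06) and CCNB2, a mitotic cyclin, by -1.48 ± 0.21 (adjusted p = 6.40e-07), with 1 vehicle library at 8 h apart from the others. PRC1, a midzone protein of the spindle, changed by 1.18 ± 0.27 (adjusted p = 0.00118) (-0.53 with spike-in scaling).

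Replication-dependent histone genes typically have no introns, and their usual mRNAs end in a stem-loop in place of a poly(A) tail. Of 52 tested (of 62), 8 had a higher effect at 8 h and none a lower one (15.4% called, near the 12.5% of all genes). The list median was 0.95 with TMM scaling and -0.90 with spike-in scaling. At 4 h, 14 of the 52 were called above vehicle, and at 8 h 39 were, beside 13.6% and 20.8% of all genes. H2AC6 (chr6:26124145-26139116, plus strand) had 41.3, 25.6, 32.3 and 22.2 CPM with the degrader at 8 h against 3.54, 0.935, 1.41 and 0.971 CPM with vehicle at 8 h, and 8.15, 3.05, 3.00 and 1.83 CPM with the degrader at 4 h against 1.58, 5.31 and 3.53 CPM with vehicle at 4 h. Every degrader library at 8 h was above every other library, and the 4 h groups overlapped. Its change was 3.81 ± 0.69 (adjusted p = 5.78e-05), or 2.06 with spike-in scaling. Histone genes are near copies of one another, so counts of single members are uncertain. The libraries were primed on poly(A), so counts of mRNAs without that tail are uncertain too. Which transcript forms were counted was not tested. RefSeq promoters were found for 48 of the 52 tested genes (51 promoters), of which 68.6% held the TATA box, 88.2% the CCAAT box, 45.1% the octamer, 17.6% the cyclic AMP response element, 25.5% the GC box and none the E box, in the same windows as above. The processing machinery of these mRNAs gave calls in the other direction with TMM scaling, with 4 of 11 genes lower and none higher (36.4% called). LSM10, of the U7 snRNP, changed by -1.68 ± 0.39 (adjusted p = 0.00174), and CPSF3, the endonuclease that cuts the 3′ end, by -1.29 ± 0.27 (adjusted p = 4.14e-04). ZNF473, also of the U7 complex, had 0 summed counts with the degrader and 106 with vehicle at 8 h, and 35 with the degrader and 83 with vehicle at 4 h.

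**Figure D3:**
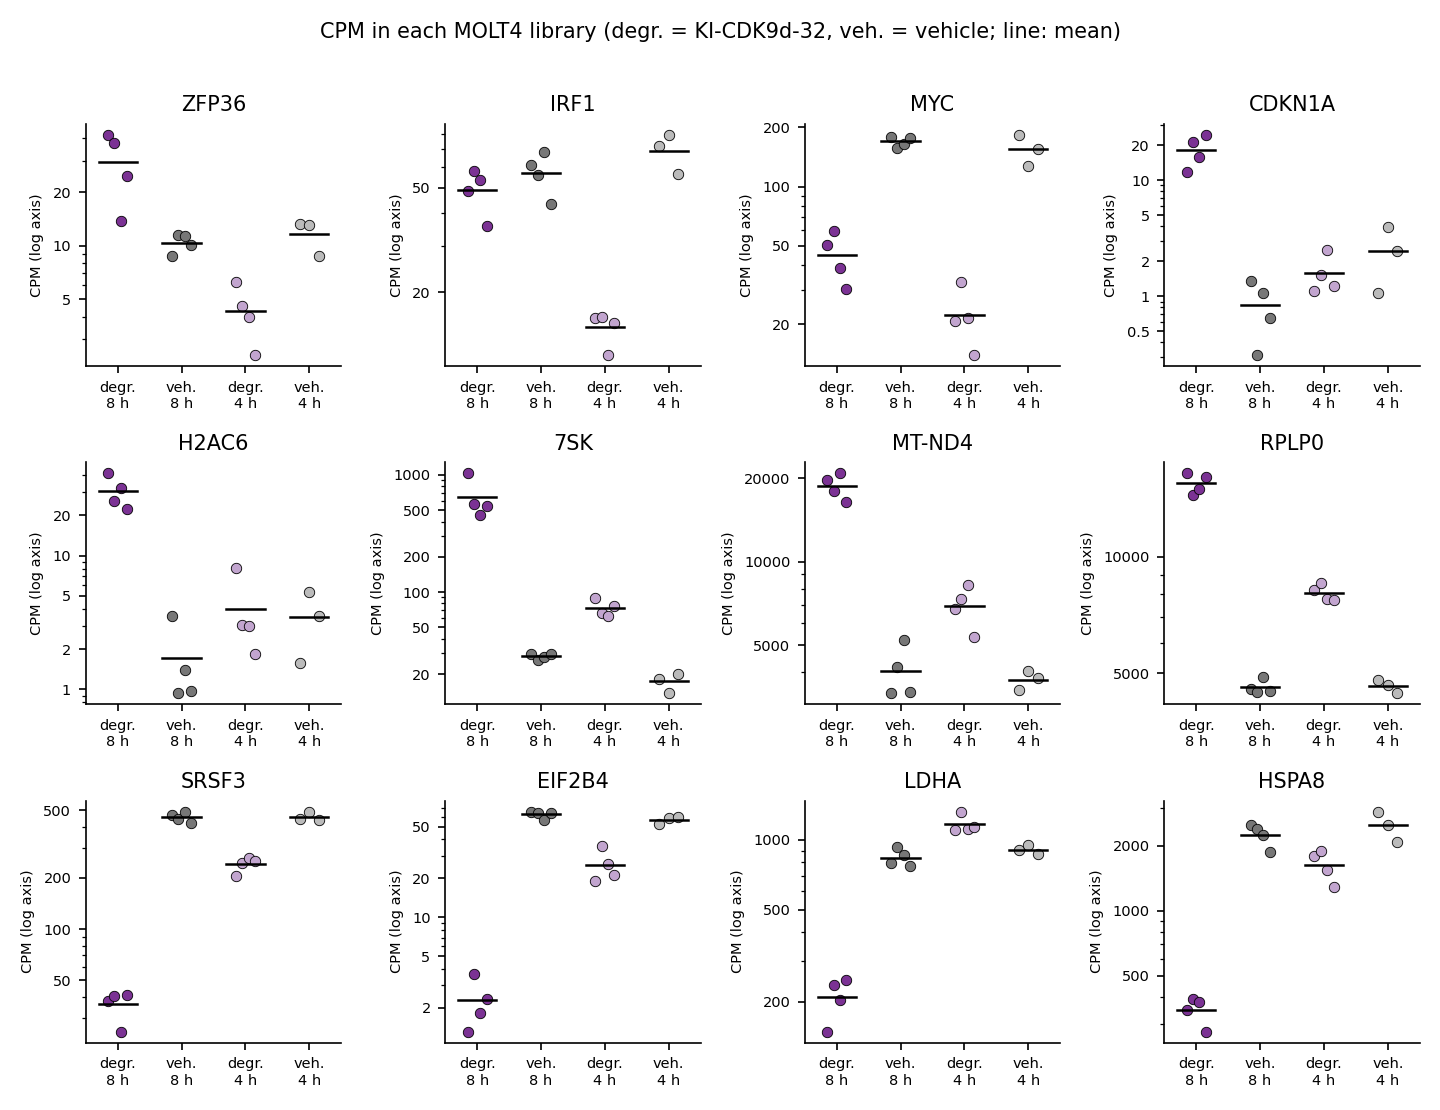
CPM of 12 genes in each of the 15 libraries on log axes (degr. = KI-CDK9d-32, veh. = vehicle; line, group mean). ZFP36, IRF1 and MYC were nearer to or above vehicle at 8 h, H2AC6 and CDKN1A were above vehicle at 8 h alone, 7SK, MT-ND4 and RPLP0 were above it at both times, and SRSF3, EIF2B4, LDHA and HSPA8 were lowest with the degrader at 8 h; with spike-in scaling the changes of MYC, MT-ND4 and RPLP0 turned negative (-0.89, -0.46 and -0.89).

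Ribosomal protein genes took 26.9 ± 1.59% of gene counts with the degrader at 8 h against 20.8 ± 0.441% with vehicle, and 25.4 ± 1.17% with the degrader at 4 h against 20.8 ± 0.22% with vehicle (SD, n = 4, 4, 4 and 3). All 79 cytosolic ribosomal protein genes were called above vehicle at 4 h and at 8 h with TMM scaling, beside 13.6% and 20.8% of all genes. Of these, 73 had a higher effect at 8 h and none a lower one (92.4% called, beside 12.5% of all genes). Their median change was 0.63 with TMM scaling, but -1.25 with spike-in scaling, where all genes had -1.79, and -0.39 with limma on TPM values. RPLP0, a protein of the ribosomal stalk, had 16451, 14458, 15007 and 16078 CPM with the degrader at 8 h against 4562, 4479, 4878 and 4505 CPM with vehicle at 8 h, and 8186, 8543, 7762 and 7718 CPM with the degrader at 4 h against 4800.4, 4656 and 4435 CPM with vehicle at 4 h. On this scale the degrader libraries lay above vehicle at both times, and those at 8 h above those at 4 h. The change was 0.95 ± 0.09 (adjusted p = 1.21e-10), or -0.89 with spike-in scaling and -0.05 with limma on TPM. RPS27 (0.91 ± 0.12) and RPL36A (0.92 ± 0.13, with 1 vehicle library at 8 h apart) rose likewise, at -1.001 and -0.92 with spike-in scaling. Ribosomal protein genes have many processed pseudogenes that can share their reads.

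Translation factors with a 5′ terminal oligopyrimidine tract, which are controlled together with ribosomal proteins, had 12 of 25 genes higher and none lower. This made 48% called, beside 12.5% of all genes. Their median was 0.35 (-1.44 with spike-in scaling, -0.59 with limma on TPM). EEF1A1, the elongation factor that delivers tRNA, had 19983 ± 1557 CPM with the degrader at 8 h against 6574 ± 220.4 with vehicle, and 11120.0 ± 1127 CPM with the degrader at 4 h against 6975 ± 293 with vehicle (SD) and a change of 0.93 ± 0.11 (adjusted p = 7.54e-09); with spike-in scaling it was -0.86. PABPC1, the poly(A)-binding protein, changed by 0.91 ± 0.15 and EEF1G by 0.84 ± 0.11 (-0.89 and -0.95 with spike-in scaling). Host genes of snoRNAs, which share the same kind of start, had 12 of 24 higher and none lower (50% called, beside 12.5% of all genes). Their median was 0.64 (-1.18 with spike-in scaling and -0.34 with limma on TPM). SNHG6 was above vehicle at both times (0.80 ± 0.12 at 4 h and 1.69 ± 0.11 at 8 h), whereas SNHG12 was below vehicle at both times and less so at 8 h (-2.63 ± 0.29 and -1.02 ± 0.26). Among nuclear long noncoding RNAs 3 of 14 were higher and none lower (21.4% called, beside 12.5% of all genes). LINC01550 changed by 1.87 ± 0.40 (adjusted p = 5.62e-04), PVT1 by 1.46 ± 0.37 (adjusted p = 0.00369) and MALAT1 by 0.87 ± 0.22 (adjusted p = 0.00635); with spike-in scaling these were 0.08, -0.34 and -0.94.

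All 13 mitochondrially encoded mRNAs had a higher effect at 8 h than at 4 h (100% called, beside 12.5% of all genes). Their median was 1.2 with TMM scaling, -0.58 with spike-in scaling and 0.22 with limma on TPM. All genes of the mitochondrial genome together, not these mRNAs alone, took 24.04 ± 1.52% of gene counts with the degrader at 8 h against 11.6 ± 1.27% with vehicle. At 4 h they took 14.9 ± 1.46% with the degrader against 11.2 ± 0.426% with vehicle (SD, n = 4, 4, 4 and 3). MT-ND4, a subunit of complex I, had 19713, 17937, 20827 and 16419 CPM with the degrader at 8 h against 3356, 4170.4, 5212 and 3391 CPM with vehicle at 8 h, and 6777, 7353, 8258 and 5349 CPM with the degrader at 4 h against 3447, 4038 and 3805 CPM with vehicle at 4 h. The degrader libraries at 8 h did not overlap any other group. Its change was 1.33 ± 0.20 (adjusted p = 1.73e-05), and -0.46 with spike-in scaling. MT-ATP8 and MT-ND6 gave 1.54 ± 0.26 (adjusted p = 1.43e-05) and 1.44 ± 0.22 (adjusted p = 1.62e-05) (-0.19 and -0.29 with spike-in scaling). Nuclear copies of mitochondrial sequence can share these reads.

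The nuclear genes for the mitochondrial ribosome went the opposite way to the cytosolic ribosome with TMM scaling, while both list medians were negative with spike-in scaling. Of 77 tested, 42 had a lower effect at 8 h and 1 a higher one (55.8% called, beside 12.5% of all genes). The median was -0.75 (-2.70 with spike-in scaling). At 4 h, 31 of the 77 were already below vehicle, and at 8 h 59 were, beside 18.9% and 28.7% of all genes. MRPS9 (chr2:105037983-105099960, plus strand), of the small subunit, had 3.28, 3.05, 0 and 7.02 CPM with the degrader at 8 h against 29.4, 44.0, 32.8 and 36.9 CPM with vehicle at 8 h, and 31.5, 28.2, 41.0 and 20.1 CPM with the degrader at 4 h against 32.5, 40.2 and 34.8 CPM with vehicle at 4 h. At 4 h the groups overlapped, and at 8 h each degrader library was far below every vehicle library, with replicate 3 at 0. The change was -3.04 ± 0.40 (adjusted p = 1.70e-07). MRPL35, of the large subunit, had 2.62, 0, 0.922 and 1.75 CPM with the degrader at 8 h against 22.6, 27.7, 27.5 and 21.04 CPM with vehicle at 8 h, and 19.6, 12.9, 19.01 and 10.96 CPM with the degrader at 4 h against 20.6, 20.1 and 15.2 CPM with vehicle at 4 h. One of its degrader libraries at 8 h was at 0, and the change was -3.91 ± 0.50 (adjusted p = 9.04e-08). MRPL15 was already below vehicle at 4 h (-1.63 ± 0.16) and fell further at 8 h (-4.04 ± 0.21), a change of -2.41 ± 0.28 (adjusted p = 1.04e-08).

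Nuclear genes for the respiratory chain were split. Of 64 tested, 20 were higher and 9 lower (45.3% called, beside 12.5% of all genes). The median was 0.13 with TMM scaling, -1.72 with spike-in scaling and -0.91 with limma on TPM. At 8 h, 45 were above vehicle and 9 below, beside 20.8% and 28.7% of all genes. SDHA, the catalytic subunit of complex II, had 10.5, 3.66, 11.1 and 15.2 CPM with the degrader at 8 h against 141, 104, 115 and 116 CPM with vehicle at 8 h, and 50, 89.1, 50.5 and 41.4 CPM with the degrader at 4 h against 133, 109 and 117 CPM with vehicle at 4 h. The degrader libraries at 8 h were below those at 4 h, which were below vehicle, and the change was -2.53 ± 0.30 (adjusted p = 2.01e-08). NDUFV2 and NDUFS3, core subunits of complex I, were called below vehicle at 8 h alone, with changes of -1.62 ± 0.22 (adjusted p = 2.08e-07) and -0.97 ± 0.16 (adjusted p = 1.88e-05). Assembly factors of cytochrome c oxidase had 4 of 24 lower and 1 higher (20.8% called, beside 12.5% of all genes). COA3 and COA6 were among the lower ones, at -2.18 ± 0.38 (adjusted p = 2.51e-05) and -1.72 ± 0.33 (adjusted p = 1.12e-04).

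Proteasome subunits were another list with many lower genes. Of 42 tested, 21 had a lower effect at 8 h and 2 a higher one (54.8% called, beside 12.5% of all genes). The median was -0.58 (-2.48 with spike-in scaling). At 4 h, 17 of the 42 were called above vehicle and 4 below, beside 13.6% and 18.9% of all genes. At 8 h, 7 were above and 24 below, beside 20.8% and 28.7% of all genes. PSMC6, an ATPase of the regulatory particle, had 9.18, 8.54, 6.46 and 7.02 CPM with the degrader at 8 h against 65.1, 72.9, 75.8 and 61.2 CPM with vehicle at 8 h, and 35.9, 40.4, 40.0 and 28.0 CPM with the degrader at 4 h against 70.3, 87.1 and 69.9 CPM with vehicle at 4 h. It was below vehicle at both times and lowest at 8 h, a change of -2.06 ± 0.27 (adjusted p = 1.65e-07). PSMD14, the deubiquitinase of the lid, changed by -1.64 ± 0.22 (adjusted p = 1.67e-07). PSMB10, an immunoproteasome subunit, was above vehicle at 4 h (0.66 ± 0.14) and below it at 8 h (-0.63 ± 0.14), a change of -1.30 ± 0.20 (adjusted p = 2.13e-06).

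Chaperone genes were called lower more often than higher. Of 34 heat shock and chaperone genes 12 were lower and 2 higher (41.2% called, beside 12.5% of all genes). Their median was -0.25 (-2.07 with spike-in scaling). HSPA8, the constitutive HSP70, had 347, 389, 377 and 276 CPM with the degrader at 8 h against 2482, 2374, 2239.8 and 1859 CPM with vehicle at 8 h, and 1784, 1889, 1542 and 1285 CPM with the degrader at 4 h against 2872, 2502 and 2076 CPM with vehicle at 4 h. Every degrader library at 8 h was below every other library, and the change was -2.08 ± 0.17 (adjusted p = 1.02e-10). Its cochaperone DNAJA1 and the HSP90 activator AHSA1 changed by -1.84 ± 0.17 (adjusted p = 5.39e-11) and -1.62 ± 0.19 (adjusted p = 8.26e-09).

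Splicing factors were split between the directions. Of 66 tested, 13 were lower and 7 higher (30.3% called, beside 12.5% of all genes). The median was -0.05, near that of all genes, and -1.86 with spike-in scaling. SRSF3 (chr6:36594353-36605600, plus strand), whose promoter is printed above, had 38.0, 40.3, 24.9 and 40.9 CPM with the degrader at 8 h against 469, 445, 490.4 and 419 CPM with vehicle at 8 h, and 206, 245, 263 and 251 CPM with the degrader at 4 h against 442, 486 and 435 CPM with vehicle at 4 h. The degrader libraries were below vehicle at both times without overlap, and those at 8 h were lower than those at 4 h. Its effect was -0.92 ± 0.097 at 4 h and -3.63 ± 0.11 at 8 h, a change of -2.72 ± 0.15 (adjusted p = 2.41e-19), and -4.51 with spike-in scaling. SRSF7, another SR protein, changed by -1.98 ± 0.21 (adjusted p = 5.68e-10), and SNRPD1, a core Sm protein, was called below vehicle at 8 h alone, with a change of -1.73 ± 0.15 (adjusted p = 3.73e-12).

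**Figure D4:**
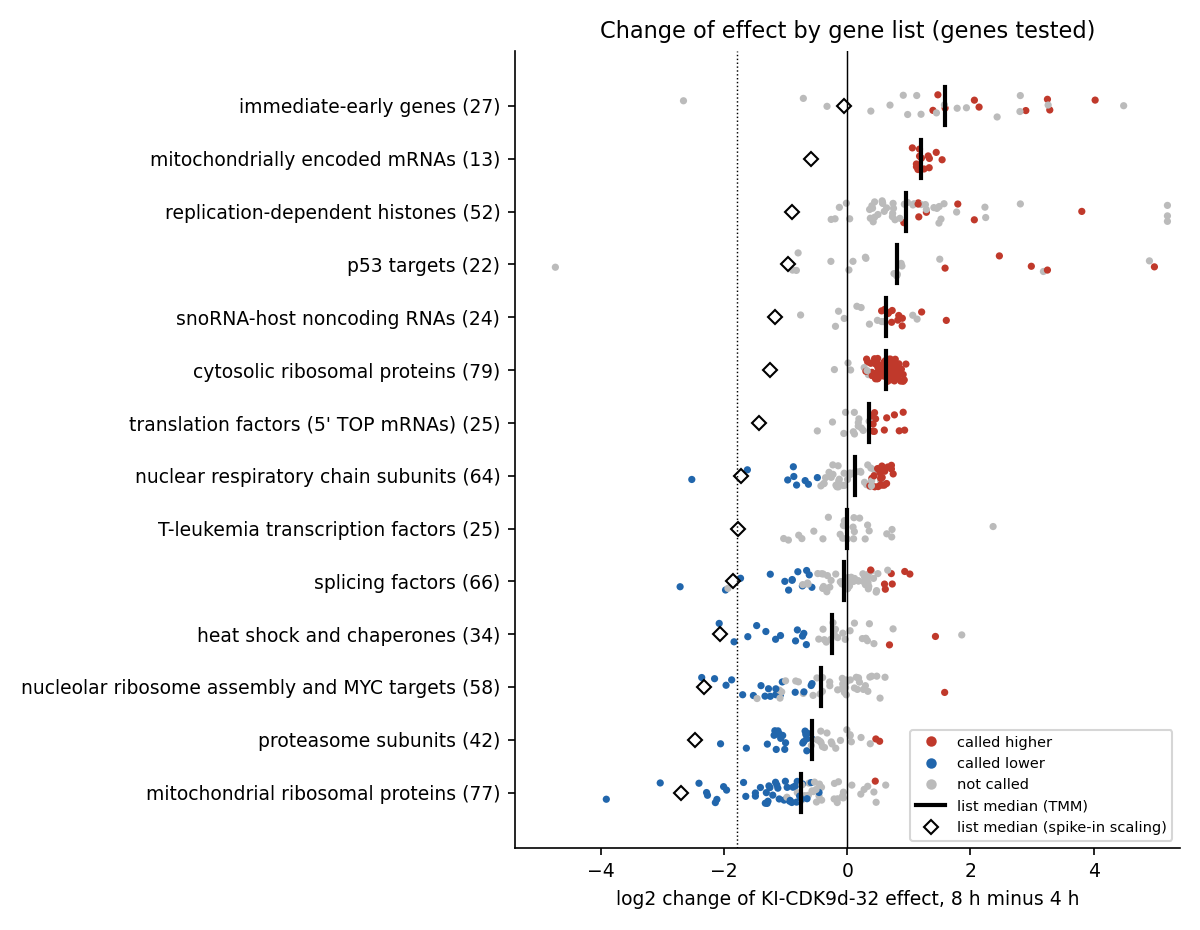
Log2 change of the KI-CDK9d-32 effect (8 h minus 4 h, horizontal axis) for each tested gene of 14 lists, with the number tested in brackets; values beyond 5.2 in size are drawn at the edge. Bars are list medians with TMM scaling, diamonds are medians with spike-in scaling and the dotted line is the median of all genes with spike-in scaling (-1.79): ribosomal protein, mitochondrially encoded and immediate-early genes lie above 0 with TMM scaling and below 0 with spike-in scaling, and mitochondrial ribosomal proteins and proteasome subunits lie below 0 under both.

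RNA decay and translation control genes also gave some of the largest single falls. EIF2B4 (chr2:27364352-27370486, minus strand), a subunit of the exchange factor for eIF2, had 1.31, 3.66, 1.84 and 2.34 CPM with the degrader at 8 h against 65.7, 63.9, 56.4 and 64.1 CPM with vehicle at 8 h, and 19.3, 35.4, 26.0 and 21.3 CPM with the degrader at 4 h against 53.1, 58.4 and 59.5 CPM with vehicle at 4 h. Its degrader libraries at 8 h were far below those at 4 h, which were below vehicle, and the change was -3.56 ± 0.34 (adjusted p = 7.18e-11). EXOSC4, a subunit of the RNA exosome, had 2.63 ± 2.87 CPM with the degrader at 8 h against 71.4 ± 5.98 with vehicle, and 15.8 ± 2.23 CPM with the degrader at 4 h against 56.1 ± 5.71 with vehicle (SD) and a change of -2.88 ± 0.42 (adjusted p = 9.67e-07). RPP21, a protein of RNase P, changed by -2.95 ± 0.38 (adjusted p = 1.89e-07). Of 53 mRNA-decay genes as a whole 9 were lower and 7 higher (30.2% called, beside 12.5% of all genes). SUV39H2, a histone H3 lysine 9 methyltransferase, changed by -2.99 ± 0.58 (adjusted p = 1.61e-04), and DTNBP1, of the BLOC-1 complex of endosome-related organelles, by -3.06 ± 0.70 (adjusted p = 0.00138). The pseudogenes PSMC1P1 and PI4KAP1 were nearly lost at 8 h. PSMC1P1 had 0 summed counts with the degrader and 234 with vehicle at 8 h, and 180 with the degrader and 211 with vehicle at 4 h, and PI4KAP1 had 2 summed counts with the degrader and 320 with vehicle at 8 h, and 61 with the degrader and 220 with vehicle at 4 h; both resemble a parent gene, so their counts are uncertain. JAKMIP1, a protein that binds JAK kinases and microtubules, had 2 summed counts with the degrader and 164 with vehicle at 8 h, and 87 with the degrader and 148 with vehicle at 4 h. Fitted folds of genes at such counts depend on the fit's prior and are not given.

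Other genes above vehicle at 8 h included PHF1, a Polycomb-associated protein, with 36.7 ± 8.26 CPM with the degrader at 8 h against 7.66 ± 1.34 with vehicle, and 9.48 ± 0.825 CPM with the degrader at 4 h against 7.62 ± 1.19 with vehicle (SD). Its change was 1.94 ± 0.51 (adjusted p = 0.00598), with 1 vehicle library at 8 h apart from the others. TSPOAP1 changed by 1.63 ± 0.39 (adjusted p = 0.00216), a call lost without replicate 3 (1.34, adjusted p = 0.0673) and a value of -0.20 with spike-in scaling. ZNF84, a zinc finger protein, changed by 1.63 ± 0.37 (adjusted p = 0.00118) (-0.27 with spike-in scaling).

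Of 25 BCL2-family and death regulators 5 were lower and 1 higher (24% called, beside 12.5% of all genes). MCL1, a short-lived anti-apoptotic protein's gene, had 7.21, 4.88, 7.38 and 5.85 CPM with the degrader at 8 h against 6.27, 8.73, 7.399 and 9.71 CPM with vehicle at 8 h, and 3.70, 4.95, 4.50 and 3.05 CPM with the degrader at 4 h against 7.66, 8.66 and 7.89 CPM with vehicle at 4 h. The degrader and vehicle groups overlapped at 8 h and not at 4 h, and the change of 0.62 ± 0.48 was not called (adjusted p = 0.482). DIABLO, which neutralizes inhibitor of apoptosis proteins, had 10.9 ± 7.66 CPM with the degrader at 8 h against 79.6 ± 5.21 with vehicle, and 31.0 ± 1.76 CPM with the degrader at 4 h against 87.4 ± 5.17 with vehicle (SD) and a change of -1.46 ± 0.31 (adjusted p = 6.10e-04). Of 23 integrated stress response genes 2 were higher and none lower (8.7%), and of 9 NF-kB and cytokine genes 1 was higher and 1 lower (22.2%). These were TNFAIP3 and NFKBIB, both negative regulators of NF-kB, at 1.47 ± 0.40 (adjusted p = 0.00740) and -1.61 ± 0.37 (adjusted p = 0.00133).

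T-cell genes showed no common direction. None of 25 T-leukemia transcription factors was called for the change. At 4 h, 4 were above and 5 below vehicle, beside 13.6% and 18.9% of all genes. At 8 h, 7 were above and 6 below, beside 20.8% and 28.7% of all genes. Of 31 T-cell receptor signaling genes 2 were higher and 4 lower (19.4% called, beside 12.5% of all genes). Of 19 T-lineage markers 1 was higher and 3 lower (21.1%). CD3E, a chain of the CD3 complex, had 829.7, 741, 575 and 822 CPM with the degrader at 8 h against 289, 263, 296 and 267 CPM with vehicle at 8 h, and 565, 543, 469 and 421 CPM with the degrader at 4 h against 322, 317 and 266 CPM with vehicle at 4 h. It was above vehicle at both times, and its change of 0.68 ± 0.15 (adjusted p = 7.94e-04) was -1.09 with spike-in scaling. LAT, the adaptor that couples the receptor to its signaling cascade, was called below vehicle at 8 h alone, with 79.1 ± 28.2 CPM with the degrader at 8 h against 179 ± 21.7 with vehicle, and 169 ± 25.6 CPM with the degrader at 4 h against 169 ± 17.96 with vehicle (SD) and a change of -1.17 ± 0.27 (adjusted p = 0.00249). LCK, the kinase that starts that cascade, changed by -0.68 ± 0.13 (adjusted p = 1.78e-04). CD1B, a lipid-presenting molecule of cortical thymocytes, had 83.2, 120.2, 136 and 129 CPM with the degrader at 8 h against 185, 194, 251 and 181 CPM with vehicle at 8 h, and 336, 343, 386 and 330.1 CPM with the degrader at 4 h against 241, 257 and 199 CPM with vehicle at 4 h. It was above vehicle at 4 h and below it at 8 h, a change of -1.38 ± 0.17 (adjusted p = 4.17e-08). CD6, a costimulatory receptor, changed by -2.71 ± 0.74 (adjusted p = 0.00859), a call lost without replicate 3 (-2.49).

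Genes often used as references were called as well. Of 20 tested, 8 had a higher and 3 a lower effect at 8 h than at 4 h (55% called, beside 12.5% of all genes). The median was 0.25 (-1.56 with spike-in scaling and -0.66 with limma on TPM).

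The degrader was also set against the inhibitor KB-0742 over the same times, as the degrader's change from 4 h to 8 h minus the inhibitor's, with the 8 degrader libraries shared with the comparison above and vehicle not used. KI-CDK9d-32 removes the CDK9 protein and KB-0742 blocks the kinase; doses are not given, so equal doses cannot be assumed. The change differed between the compounds for 3218 genes (27.6%), higher with the degrader for 1647 (14.1%) and lower for 1571 (13.5%). With spike-in scaling these were 14 (0.12%) and 5212 (44.7%). For KB-0742 alone, 910 genes had a higher (7.8%) and 1161 a lower effect (9.95%) at 8 h than at 4 h; with spike-in scaling none was called by edgeR, with 888 genes at an unadjusted p below 0.05. Immediate-early genes had 16 of 27 higher with the degrader and none lower, cytosolic ribosomal proteins 72 of 79 higher and none lower, and mitochondrially encoded mRNAs 13 of 13 higher. Mitochondrial ribosomal proteins had 7 higher and 44 lower of 77, splicing factors 8 higher and 31 lower of 66, and G2/M genes 1 higher and 21 lower of 42. SRSF3 changed by -2.72 ± 0.15 with the degrader and 0.09 ± 0.13 with KB-0742, a difference of -2.81 ± 0.15 (adjusted p = 1.00e-20). MYC changed by 0.86 ± 0.24 with the degrader and -1.05 ± 0.21 with KB-0742 (difference 1.91 ± 0.24, adjusted p = 1.65e-08). IRF1 changed by 1.998 ± 0.27 with the degrader and -0.78 ± 0.24 with KB-0742 (difference 2.77 ± 0.27, adjusted p = 2.20e-11). JMJD6, ZNF84, LCK and PSMB10 changed with the degrader, and the differences between compounds of 0.56 ± 0.30, 0.14 ± 0.36, 0.04 ± 0.13 and 0.20 ± 0.20 were not called (adjusted p = 0.164, 0.836, 0.849 and 0.483).

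The same contrast in the other lines gave almost no calls. In PSN1 cells the effect of the degrader changed from 4 h to 8 h for 2 of 12471 genes (0.016%), SRSF7 (-0.96 ± 0.17, adjusted p = 0.0243) and ENSG00000186076 (4.31 ± 0.75, adjusted p = 0.0328), with 1169 genes at an unadjusted p below 0.05. In RH4 cells edgeR called 0 of 12058 genes (0%), with 891 at an unadjusted p below 0.05. Genes called higher in MOLT4 had median values of 0.24 in PSN1 and 0.25 in RH4, and genes called lower had -0.13 and -0.24. In MOLT4, PSN1 and RH4 the changes were 0.86 ± 0.24, 0.73 ± 0.19 and 0.89 ± 0.34 for MYC, and -2.72 ± 0.15, -0.54 ± 0.14 and -0.75 ± 0.15 for SRSF3. For LDHA they were -2.36 ± 0.15, 0.15 ± 0.21 and -0.12 ± 0.15. The difference between lines was not tested, since each line was fitted on its own.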

How the data were processed

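Thawed lysates received the same amount of an ERCC and SIRV spike-in mix, and 1 ng of RNA went into SMART-seq2 and Nextera XT libraries, per the labels, a method that marks neither strand nor single molecules. Salmon and hg38 are named in the submitters' processing notes. The deposited expected counts are estimated counts rounded to whole numbers, and the authors also deposited log2 values of TPM plus 1, used in the limma alternative alone. Of 62856 entries, 92 ERCC, 7 SIRV and 47 Y pseudoautosomal entries were left out of tests. Positions came from GENCODE release 29, matched for 11316 of 11664 tested genes, and sequences from RefSeq.

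One fit covered all 35 MOLT4 libraries in 9 groups with edgeR 4.0.16 in R 4.3.3 (robust quasi-likelihood F test, TMM scaling, filterByExpr with a minimum count of 10, Benjamini-Hochberg adjustment at 0.05 within each comparison). It set aside 0.437% of gene counts. The SE is the log2 change divided by the root of F. CPM use TMM-scaled library sizes. Replicate libraries varied 3.45 to 10.5 times as much as counting alone gives. Alternatives were spike-in and RLE scaling, no filter, the 15 libraries alone, a replicate block, DESeq2 1.42.0, limma 3.58.1 on log2(TPM + 1), and leaving out each library; leaving out replicate 3 was chosen after seeing the data. Spike-in shares were compared by exact permutation.

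The rule for naming genes took fixed ones (CCNT1, CDK9, HEXIM1, MCL1, MYC, POLR2A and RN7SK), the 12 highest and 12 lowest called genes whose mean log2 CPM was 3 or more, whose call held without any 1 library and whose degrader and vehicle groups did not overlap at 8 h, up to 3 called genes of each of 35 lists (1177 genes), and up to 4 per time course. List members whose call was lost without 1 library were left out, a choice made after values were seen, and a few genes that the rule gave are not reported here, so 97 of 116 genes remain, not all of them printed. The members and lists were chosen with earlier results of these data known.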

Additional observations from a re-analysis of the deposited data

Results flagged for a closer look

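Each group of 4 libraries was checked for one that stood far from the other 3, as the gap to its nearest neighbour divided by the range of the group. Of 294 groups checked over the named genes and library shares, 16 passed the 95% critical value of Dixon's test, and chance alone flags about 1 group in 20. With the degrader at 8 h these ratios were 0.838 for MAD2L1BP, 0.935 for PAF1 and 0.852 for USP18. In the same group JAKMIP1, PI4KAP1 and SNX15 each gave 1.0, as 3 libraries were at 0 and the fourth at 1.17, 1.17 and 4.27 CPM. Without that library the group is at 0 counts for each of these genes, and the fitted change then depends on the fit's prior and is not given. With vehicle at 8 h the ratios were 0.902 for HEXIM1, 0.891 for PHF1, 0.926 for PAF1, 0.831 for RPL36A and 0.943 for CCNB2. With the degrader at 4 h they were 0.836 for CDK9, 0.83 for IRF1 and 1.0 for DUSP1, whose only 2 counts there came from 1 library. Among library measures, the spike-in share gave 0.866 with vehicle at 8 h (11.7% in replicate 4, with the others up to 15.8%), and the mitochondrial share gave 0.833 with the degrader at 8 h (26.3% in replicate 1).

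The effect of the degrader differed between 8 h and 4 h for 1459 genes by the test of the difference itself, and the change from 4 h to 8 h differed between KI-CDK9d-32 and KB-0742 for 3218 genes.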

How the results depend on the processing

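The number of genes whose effect changed from 4 h to 8 h stayed within 1.5 times of 601 higher and 858 lower with RLE scaling (737 and 740), without a filter on low counts (405 and 924), in the 15 libraries alone (501 and 755) and without replicate 3 (424 and 662). DESeq2 called 908 higher and 853 lower. With spike-in scaling the counts were 8 higher and 5294 lower for the change of effect, 100 and 10609 at 8 h, 80 and 4310 at 4 h, and 14 and 5212 for the difference from KB-0742. With limma on log2(TPM + 1) they were 70 and 3164, 264 and 9270, 196 and 5479, and 101 and 3869. The cause was not tested beyond the shift of the median gene, which was -1.79 with spike-in scaling and -0.72 with limma, 0.09 with RLE scaling and 0.09 with DESeq2. Of 34 list medians, 12 that lay between -0.21 and 0.11 changed sign without 1 library. Leaving out 1 library in turn gave 497 to 597 higher and 712 to 939 lower genes. Replicate numbers were not taken to pair the samples, as 0 of 21 pairs correlated above 0.1 in their deviations (-0.00368 to 0.0862). However, 16 of the 21 correlated best with their own number, a hint from the data of something shared. A fit with the replicate number as a block called 660 higher and 920 lower. The spike-in difference with the degrader between 8 h and 4 h, 1.21, ranged from 0.776 to 1.61 without 1 library. That between vehicle at 8 h and 4 h, -0.107, ranged from -0.306 to 0.175 without 1 library and was 0.139 without replicate 3.

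With spike-in scaling 27 named genes took the opposite direction, namely CDK9 -1.26, CCNT1 -0.80, HEXIM1 -1.23, MYC -0.89, MCL1 -1.20, POLR2A -1.42, E2F7 -0.11, TSPOAP1 -0.20, ZNF84 -0.27, JMJD6 -0.66, MED13 -0.14, RPLP0 -0.89, RPL36A -0.92, RPS27 -1.001, MT-ATP8 -0.19, MT-ND6 -0.29, MT-ND4 -0.46, PRC1 -0.53, SNHG10 -0.85, SNHG6 -0.96, PVT1 -0.34, MALAT1 -0.94, EEF1A1 -0.86, PABPC1 -0.89, EEF1G -0.95, CD3E -1.09 and MT-TQ -0.35. With limma on TPM 15 did, namely CDK9 -0.24, CCNT1 -0.044, HEXIM1 -0.25, MCL1 -0.38, POLR2A -0.50, JMJD6 -0.50, RPLP0 -0.046, RPL36A -0.14, RPS27 -0.13, SNHG6 -0.0424, MALAT1 -0.00193, EEF1A1 -0.0550, PABPC1 -0.10, EEF1G -0.14 and CD3E -0.31. Another 17 named genes kept their direction but lost their call with spike-in scaling, and 22 did with limma. Over 96 named genes tested none reversed, and none lost a call, with RLE scaling, DESeq2, the replicate block, no filter or the 15 libraries alone. Most of these genes were named because their call was large or held without 1 library, so this is not a further result. Of all 1459 called genes, 1341 were also called with RLE scaling, 1408 with DESeq2 and 1431 with the replicate block. Without a filter 1170 were, and in the 15 libraries alone 1205. At 1598283 gene counts in the shallowest library, genes near 1 CPM rest on 1 or 2 counts.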

Other observations

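Some changes lay outside the gene groups above. FBXW9, an F-box protein, and PTGES2, a prostaglandin E synthase, were above vehicle at 4 h (0.73 ± 0.29 and 0.78 ± 0.25) and below it at 8 h (-1.07 ± 0.31 and -0.82 ± 0.26), with changes of -1.80 ± 0.43 (adjusted p = 0.00200) and -1.60 ± 0.36 (adjusted p = 0.00107). The call of PTGES2 was lost without replicate 3 (-1.13, adjusted p = 0.0589). MT-TQ, a mitochondrial tRNA gene, changed by 1.59 ± 0.43 (adjusted p = 0.00745), or -0.35 with spike-in scaling. Of 12 small nuclear and other short noncoding RNAs tested, 1 was called higher and none lower (8.33% called, beside 12.5% of all genes). Their median was 1.86 (0.15 with spike-in scaling).

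MPO, the myeloperoxidase gene of myeloid cells, lies 20292 bases from TSPOAP1 on chromosome 17, both on the minus strand, and TSPOAP1 had 98.1 ± 21.4 CPM with the degrader at 8 h against 12.2 ± 1.85 with vehicle, and 30.5 ± 7.86 CPM with the degrader at 4 h against 11.9 ± 3.77 with vehicle (SD, n = 4, 4, 4 and 3). Whether the counts of the 2 genes are linked was not tested.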
